A study of Homo sapiens with 6 samples.

Results

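The genes described here are the integrin subunits and the proteins that tie their tails to the actin cytoskeleton: 18 alpha subunits, 8 beta subunits, 3 kindlins, 2 talins, vinculin (VCL) and paxillin (PXN), and 5 genes of the ILK, PINCH and parvin complex. They were chosen by name, as 38 of the 61487 genes in the count table, and all 38 matched a row. RNA was compared between azacitidine-sensitive K562 cells (3 libraries) and azacitidine-resistant K562 cells (3 libraries). K562 is a human leukaemia line that grows in suspension and carries the BCR-ABL1 fusion. Azacitidine is a cytidine analogue that enters RNA and DNA and traps DNA methyltransferases. The resistant cells were derived from the sensitive line by months of exposure to rising drug concentrations, so the comparison covers whatever changed in that time. Both groups were kept in the same RPMI medium with serum and antibiotics, and the labels name no treatment at harvest and do not say whether the resistant cells are a clone. The titles number the libraries as biological replicates but do not state that separate cultures were used. The p-values therefore measure only the spread among these 6 libraries, which may be technical.

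Integrins are receptors made of 1 alpha and 1 beta subunit that bind extracellular matrix or proteins on other cells. Talin and kindlin bind the short tail of the beta subunit and switch the receptor to its active state, vinculin strengthens the bond between talin and actin, and paxillin and the ILK, PINCH and parvin complex recruit signalling proteins. In blood cells the beta 2 integrins belong to leukocytes, the pair of ITGA2B and ITGB3 is the fibrinogen receptor of platelets, and ITGA4 and ITGA5 paired with ITGB1 bind fibronectin. FERMT3 (kindlin-3) is the kindlin of blood cells, while FERMT2 (kindlin-2) is known mainly from adherent tissues.

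Total counts per library lay between 33007642 and 43006918. The first principal component (66.3% of the variance) separated the groups and the second (18%) set the libraries numbered 3 apart from the other libraries of their group. The labels give the cell type as myeloblast. Of 8 myeloblast markers, KIT, CSF3R and PRTN3 were lower in resistant cells, AZU1 was not called, and MPO, ELANE, CD34 and CTSG had between 0 and 9 counts summed over a group. The 12 erythroid markers of K562 summed to between 1059 and 1968 CPM (counts scaled to a common library size) in sensitive and between 1128 and 1898 CPM in resistant libraries, and 1 of the 11 tested (GYPC) was called lower. TFRC was the largest part of these sums, at 325, 347 and 1200 CPM in sensitive and 591, 657 and 954 CPM in resistant libraries.

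Most of the adhesion genes with a clear difference were lower in resistant cells. FERMT2 fell furthest, and the other kindlin genes, VCL, the integrin subunit genes ITGA5, ITGA2B, ITGB1 and ITGB5, and less abundant subunit genes fell as well. In the opposite direction TLN2, ITGB8 and ITGA1 rose, from low levels. ITGAV, LIMS1 and PARVB, all well expressed, did not pass the test. Of the 38 genes, 33 passed the filter on low counts, and at an edgeR adjusted p below 0.05 (Benjamini-Hochberg over all genes tested) 11 were lower and 3 higher. These are 33.3% and 9.09% of those tested, where 13.1% of all 20891 tested genes were called lower and 9.83% higher. The share called higher is thus near that of all genes. Their median log2 fold change was −0.54, against 0.03 over all tested genes. ITGA1 and ITGB8 passed the filter only through the resistant libraries, where they are high. The 3 sensitive and 3 resistant libraries did not overlap for 17 of the 33, which is 51.5% against 40.1% of all tested genes, and the 14 called genes were among them. Of the 17, 13 were lower and 4 higher in resistant cells, where 21.4% and 18.7% of all tested genes were. Fewer cells carrying a transcript and less transcript per cell cannot be told apart in these bulk libraries.

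**Figure D1:**
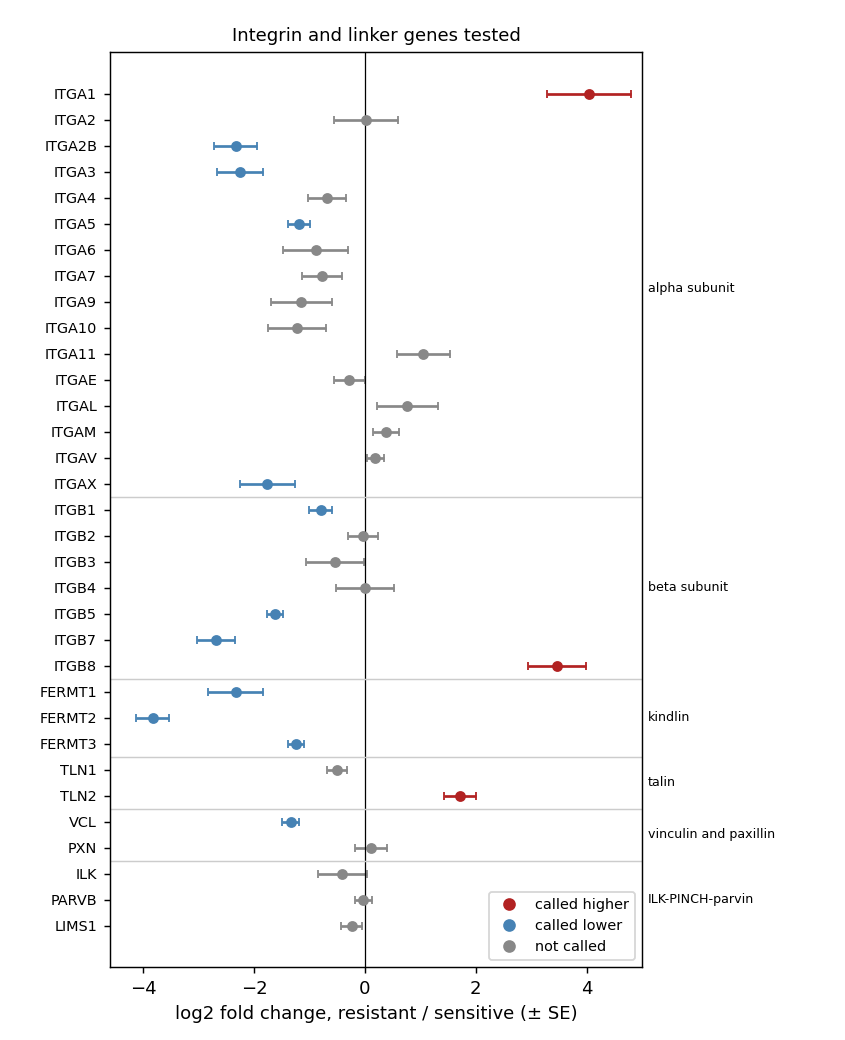
Log2 fold change (resistant over sensitive, horizontal axis) with its SE for the 33 tested integrin and linker genes, grouped by role. The 11 genes called lower (blue) include all 3 kindlins, and the 3 called higher (red) are ITGA1, ITGB8 and TLN2.

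The kindlin genes all fell. FERMT2 lies on the minus strand of chromosome 14 (52857268 to 52952435, GENCODE 29 on GRCh38). It measured 52.4, 53.7 and 71.8 CPM in sensitive replicates 1, 2 and 3 and 3.27, 3.14 and 6.11 CPM in resistant replicates 1, 2 and 3. Every resistant library thus lay far under every sensitive library, and the replicate numbered 3 was the highest of each group. Group means were 59.3 ± 10.8 and 4.17 ± 1.68 CPM (SD, 3 libraries each). FERMT2 was 14.2-fold lower (log2 −3.83 ± 0.29 SE, edgeR adjusted p = 1.49e-05). FERMT3, on chromosome 11 (64206678 to 64223886), measured 137, 134 and 133 CPM in sensitive and 58.8, 58.4 and 54.4 CPM in resistant libraries, a narrow spread within each group. It fell 2.36-fold (log2 −1.24 ± 0.14 SE, edgeR adjusted p = 1.92e-04). FERMT1 (kindlin-1, of epithelia), on chromosome 20, was low, at 1.81, 2.04 and 1.39 CPM against 0.526, 0.377 and 0.131 CPM, and fell 5.04-fold (edgeR adjusted p = 0.00863).

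Levels of different genes are compared per length, as CPM per kilobase of annotated exon. On that scale the summed kindlin level was 51.3 ± 0.743 in sensitive and 19.2 ± 0.624 CPM per kb in resistant cells (SD, n = 3). FERMT3 made up 85.8% ± 2.2 of this sum in sensitive cells and 97.1% ± 0.963 in resistant cells. The share of FERMT2 was 12%, 12.5% and 16.2% in the sensitive libraries and 1.95%, 1.90% and 3.88% in the resistant libraries. Resistant cells therefore kept the blood cell kindlin at a lower level and had little of the other kindlin transcripts.

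The talin genes went in opposite directions. TLN1, the abundant talin gene on chromosome 9 (35696948 to 35732395), measured 422, 392 and 407 CPM in sensitive and 333, 289 and 240 CPM in resistant libraries. The groups did not overlap, but the difference did not pass (log2 −0.50 ± 0.18 SE, edgeR adjusted p = 0.0720). It passed with DESeq2 (adjusted p = 0.0386), with offsets for gene length and GC content (0.0155) and without both libraries numbered 3 (0.0243). TLN2, a longer-gene paralogue on chromosome 15 (62390526 to 62844631), rose from 1.44, 2.07 and 1.55 to 6.45, 5.93 and 4.22 CPM. Its log2 fold change was 1.71 ± 0.29 (SE; edgeR adjusted p = 0.00241). ENSG00000259370, which shares 847 exon bases with TLN2 on the other strand, had no counts in sensitive libraries. It had 3, 4 and 4 counts in resistant libraries. Per length TLN2 remained a minor talin, at 0.259% ± 0.0610 of the summed talin level in sensitive and 1.18% ± 0.0893 in resistant cells.

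Vinculin fell and paxillin did not pass. VCL, on chromosome 10 (73995193 to 74121363), measured 291, 262 and 276 CPM in sensitive and 112, 114 and 101 CPM in resistant libraries. It was 2.54-fold lower (log2 −1.34 ± 0.15 SE, edgeR adjusted p = 2.31e-04), with no overlap between the groups. AP3M1, which shares 1109 exon bases with VCL on the other strand, had a log2 fold change of −0.11 (adjusted p = 0.616). PXN, on chromosome 12, had 12.7, 12.8 and 12.3 CPM in sensitive and 20.9, 11.1 and 8.65 CPM in resistant libraries. The resistant libraries thus lay on both sides of the sensitive libraries, and resistant replicate 1 was the highest of all 6 (log2 0.11 ± 0.29 SE, edgeR adjusted p = 0.829). The sign for PXN turned without resistant replicate 1 (log2 −0.35). PXN-AS1, which shares 918 exon bases with PXN on the other strand, was not called (log2 0.11, edgeR adjusted p = 0.799).

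None of the tested genes of the ILK, PINCH and parvin complex was called. LIMS1 (PINCH-1, an adaptor that binds ILK), on chromosome 2, measured 160, 123 and 154 CPM in sensitive and 103, 114 and 151 CPM in resistant libraries, which overlap (log2 −0.24 ± 0.19 SE, edgeR adjusted p = 0.389). Without both libraries numbered 3 it was called lower (log2 −0.39, adjusted p = 0.0254). PARVB (beta-parvin, which links ILK to actin), on chromosome 22, was level across the libraries, at 33.9, 34.0 and 34.7 against 29.7, 33.9 and 37.1 CPM (log2 −0.03 ± 0.15 SE, edgeR adjusted p = 0.913). Its neighbour PARVG, the parvin of blood cells, which starts 7 bases downstream on the same strand, had 6 counts in sensitive and 9 in resistant cells, and PARVA 3 and 4. Both were too low to be tested. ILK, the scaffold of the complex, measured only 0.904, 1.11 and 0.723 CPM in sensitive and 0.471, 0.981 and 0.603 CPM in resistant libraries. Its value is uncertain, because 2374 of its 3484 annotated exon bases also belong to TAF10 on the opposite strand and the strand setting of the counting is not given in the sources used here.

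**Figure D2:**
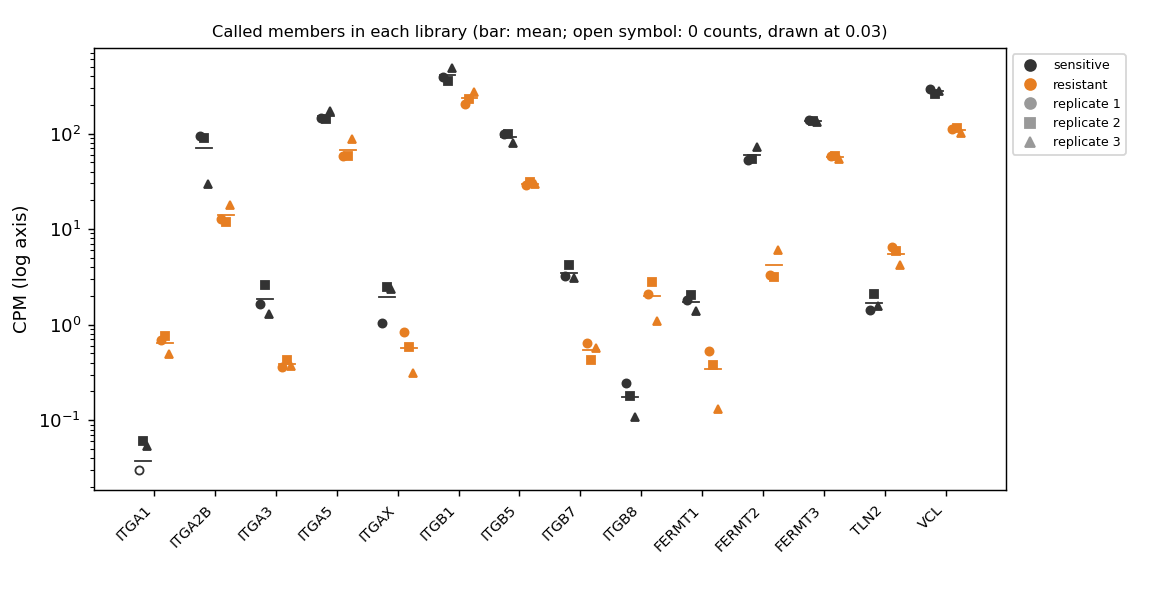
CPM on a log axis in each of the 6 libraries for the 14 called genes, with sensitive libraries in dark grey and resistant libraries in orange, a symbol for each replicate number and a bar at the group mean. No called gene has overlapping groups, and for ITGA2B the sensitive library numbered 3 (29.4 CPM) lies nearest to the resistant libraries.

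Among beta subunits, ITGB1, ITGB5 and ITGB7 fell and ITGB8 rose. ITGB1, the common partner of most alpha subunits, lies on chromosome 10 (32900319 to 33005792). It measured 389, 358 and 485 CPM in sensitive and 202, 231 and 274 CPM in resistant libraries. All resistant libraries were lower, and the log2 fold change was −0.80 ± 0.20 (SE; edgeR adjusted p = 0.0154). This call was lost without resistant replicate 1 (adjusted p = 0.0558), resistant replicate 2 (0.101) or sensitive replicate 3 (0.0508). ITGB5, which pairs with ITGAV to bind vitronectin, fell more, from 98.5, 99.9 and 79.0 to 28.9, 31.3 and 29.7 CPM. The resistant values are within a narrow range and the fall was 3.08-fold (log2 −1.62 ± 0.15 SE, edgeR adjusted p = 6.34e-05). ITGB5 is on chromosome 3 (124761948 to 124901418).

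ITGB7, the lymphocyte subunit that pairs with ITGA4 and ITGAE, was low, at 3.25, 4.24 and 3.05 CPM in sensitive and 0.637, 0.427 and 0.577 CPM in resistant libraries. It fell 6.40-fold (edgeR adjusted p = 4.36e-04) and shares 1886 of its 4481 exon bases with ZNF740 on the other strand, which was not called (log2 0.16). ITGB8, an ITGAV partner that activates latent TGF-beta, rose from 0.244, 0.180 and 0.107 to 2.10, 2.77 and 1.10 CPM (log2 3.46 ± 0.52 SE, edgeR adjusted p = 0.00128). In counts this is a change from 10, 6 and 4 to 76, 110 and 42, still a low level. It lies on chromosome 7 (20330702 to 20415754).

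The leukocyte beta subunit gene ITGB2 did not differ detectably, at 3.27 ± 0.632 and 3.20 ± 0.162 CPM (SD, n = 3; log2 −0.03 ± 0.27 SE, edgeR adjusted p = 0.953). Its antisense neighbour ITGB2-AS1 fell from 1.28 ± 0.580 to 0.107 ± 0.0758 CPM (edgeR adjusted p = 0.00287). ITGB3, the platelet subunit, measured 0.940 ± 0.493 and 0.646 ± 0.211 CPM (edgeR adjusted p = 0.498). Its count is uncertain, since 2266 of its 4394 exon bases are shared with a same-strand gene, ENSG00000259753, listed at 0. ITGB4, of epithelial hemidesmosomes, had a log2 fold change of 0.00 ± 0.52 (SE) at 0.746 ± 0.230 and 0.747 ± 0.376 CPM. ITGB6, an epithelial subunit, had no counts in any library, which allows up to 0.0902 CPM (3 counts of the smallest scaled total, counting error only).

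Per length, ITGB1 dominated the beta subunits, with 80.8% ± 4.25 of their summed level in sensitive and 87.3% ± 1.81 in resistant cells. ITGB5 came next with 17.3% ± 3.77 and 10.5% ± 1.29, and the remaining genes held at most 1.23% each in any library. The summed level was 84.3 ± 8.98 and 44.8 ± 6.02 CPM per kb. These shares describe the mixture, and a share can move because another gene changed.

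Among alpha subunits, ITGA2B, ITGA3, ITGA5 and ITGAX fell and ITGA1 rose. ITGA5, the fibronectin receptor subunit on chromosome 12 (54395261 to 54419460), measured 146, 141 and 174 CPM in sensitive and 58.1, 57.6 and 86.7 CPM in resistant libraries. The library numbered 3 was the highest in each group, and the groups did not overlap. The fall was 2.28-fold (log2 −1.19 ± 0.20 SE, edgeR adjusted p = 0.00214).

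ITGA2B, the platelet subunit CD41, lies on chromosome 17 (44372180 to 44389505). It measured 94.0, 88.9 and 29.4 CPM in sensitive and 12.7, 11.8 and 17.8 CPM in resistant libraries. Sensitive replicate 3 was thus less than a factor of 2 above resistant replicate 3, while the other sensitive libraries lay far higher. The log2 fold change was −2.33 ± 0.39 (SE; edgeR adjusted p = 0.00216) and −2.91 at the largest of the alternatives, and the gene was called in all 15. Of 12 megakaryocyte and platelet markers, 4 could be tested, of which F2RL3 fell and GP6, GP1BA and TUBB1 were not called. Their summed level was between 49.7 and 57.5 CPM in sensitive and between 13.1 and 18 CPM in resistant libraries, of which F2RL3 made up 41.5 ± 3.53 and 5.64 ± 0.501 CPM (SD, n = 3), and PF4 and GP1BB had no counts. Their part in the ITGA2B result was not tested.

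ITGA3, a laminin receptor subunit, and ITGAX, the leukocyte subunit CD11c, fell from low levels. ITGA3 measured 1.66, 2.59 and 1.29 CPM in sensitive and 0.360, 0.427 and 0.367 CPM in resistant libraries, 4.75-fold lower (edgeR adjusted p = 0.00394). ITGAX measured 1.03, 2.49 and 2.36 against 0.830, 0.578 and 0.315 CPM, 3.40-fold lower (edgeR adjusted p = 0.0282). Sensitive replicate 1 lay close to resistant replicate 1. This call was lost without resistant replicate 2 (adjusted p = 0.0941), sensitive replicate 2 (0.0976) or sensitive replicate 3 (0.0696).

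ITGAM (CD11b), next to ITGAX on chromosome 16 (ITGAM at 31259967 to 31332892, ITGAX at 31355134 to 31382997), did not fall with it. It measured 28.5, 45.2 and 44.7 CPM in sensitive and 60.4, 57.8 and 36.3 CPM in resistant libraries, which overlap through resistant replicate 3 (log2 0.38 ± 0.24 SE, edgeR adjusted p = 0.282). Without both libraries numbered 3 it was called higher (log2 0.67, adjusted p = 0.00815). ITGAD, the next subunit gene along, had 14 counts in sensitive and 1, in resistant replicate 1, in resistant cells, a ratio of 14.3 with an exact 95% binomial interval from 2.18 to 605 (counting error only). Of 13 granulocyte and monocyte markers, 5 of 6 tested fell and none rose. Their summed level was between 432 and 468 CPM in sensitive and between 43.6 and 51.6 CPM in resistant libraries. Most of it was FCGR2A (273 ± 37.1 and 27.8 ± 3.91 CPM, SD, n = 3) and CD33 (105 ± 6.34 and 10.6 ± 1.26 CPM). S100A8 and FCN1 had no counts, and CD14, CD68, S100A9 and CD163 had between 0 and 16 counts summed over a group. The part of these markers in the ITGAX result was not tested.

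ITGA1, a collagen receptor subunit on chromosome 5 (52787896 to 52959210), rose from 0, 2 and 2 counts to 25, 30 and 19 counts. In CPM these are 0.0379 ± 0.0330 and 0.648 ± 0.134 (SD, n = 3), a log2 fold change of 4.04 ± 0.76 (SE; edgeR adjusted p = 0.00439). The fold is imprecise at so few counts, with a log2 value of 3.42 without sensitive replicate 1, and 475 of its exon bases overlap PELO on the same strand, which was not called. Its neighbour ITGA2, the other collagen receptor subunit there, did not differ detectably (0.675 ± 0.164 and 0.681 ± 0.424 CPM, edgeR adjusted p = 0.986).

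ITGAV, the vitronectin receptor subunit on chromosome 2 (186590065 to 186680901), overlapped between the groups. It measured 99.1, 89.8 and 82.8 CPM in sensitive and 98.5, 110 and 100 CPM in resistant libraries (log2 0.19 ± 0.15 SE, edgeR adjusted p = 0.398). ITGA4, which binds fibronectin and VCAM1, measured 14.1, 12.5 and 31.4 against 9.30, 11.2 and 15.4 CPM. The libraries numbered 3 were highest and the groups overlapped (log2 −0.69 ± 0.34 SE, edgeR adjusted p = 0.180). It was called lower with no filter on low counts (adjusted p = 0.00957), and without sensitive replicate 3 the log2 fold change was −0.16. ITGAE, the subunit that binds E-cadherin, measured 13.4 ± 4.96 and 11 ± 2.62 CPM (edgeR adjusted p = 0.505). Its sign turned without sensitive replicate 3 (log2 0.06).

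ITGA9, which binds tenascin and osteopontin, varied widely within the sensitive group, at 8.33, 10.6 and 1.45 CPM, with resistant libraries at 2.96, 3.04 and 3.17 CPM. Sensitive replicate 3 lay under all resistant libraries and the difference did not pass (log2 −1.15 ± 0.55 SE, edgeR adjusted p = 0.166). Without sensitive replicate 3 the log2 fold change was −1.63 (adjusted p = 0.00160), and with no filter on low counts the gene was also called (0.00138). ITGA6, ITGA7, ITGA10, ITGA11 and ITGAL, each under 3 CPM in every library, were not called (edgeR adjusted p from 0.121 for ITGA10 to 0.355 for ITGAL). ITGA10 measured 0.624 ± 0.196 and 0.264 ± 0.0934 CPM and ITGA11 0.445 ± 0.220 and 0.920 ± 0.135 CPM, and neither had overlapping groups. ITGA8 was too low to be tested, with between 3 and 16 counts per library.

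The order of the alpha subunits by level per length changed between the groups. In sensitive cells ITGA5 came first at 20.3 ± 2.31 CPM per kb, then ITGA2B at 12.7 ± 6.47, ITGAV at 11 ± 0.994 and ITGAM at 6.94 ± 1.67 (SD, n = 3). ITGA2B and ITGAV do not differ beyond their spread there. In resistant cells ITGAV came first at 12.5 ± 0.773, then ITGAM at 9.05 ± 2.33, ITGA5 at 8.90 ± 2.2 and ITGA2B at 2.54 ± 0.578, and ITGAM and ITGA5 do not differ beyond their spread. ITGAV held 19.2% ± 1.19 of the summed alpha level in sensitive and 33.6% ± 2.05 in resistant cells, while its own level was not called different. The summed alpha level was 57.5 ± 2.77 and 37.3 ± 0.898 CPM per kb.

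**Figure D3:**
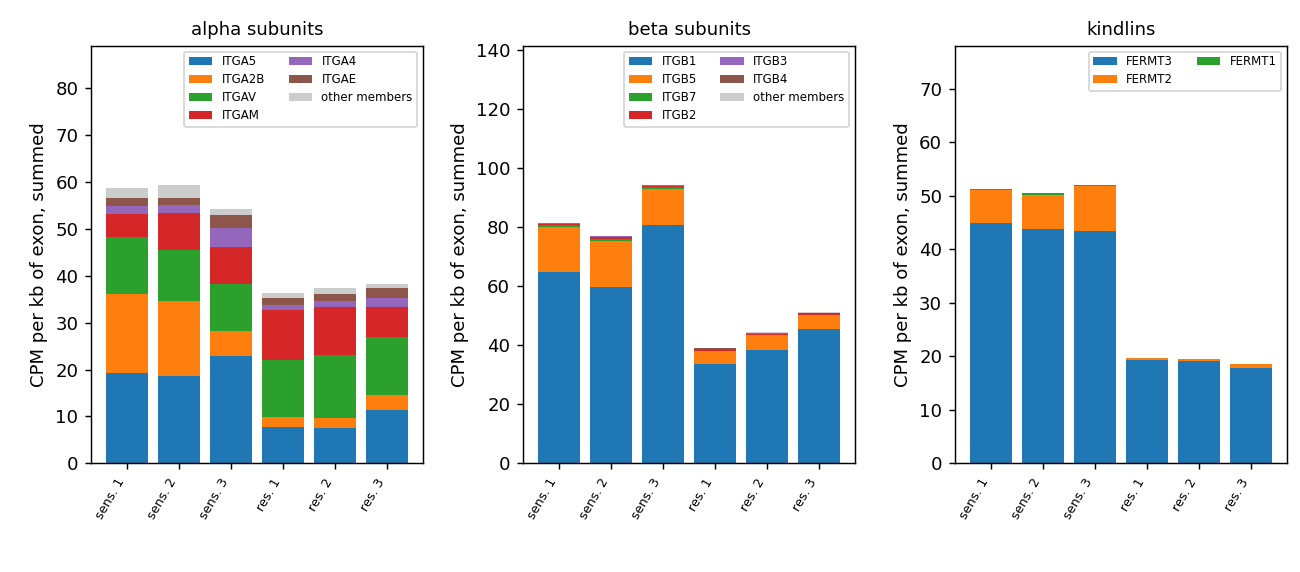
Summed CPM per kb of exon in each library for alpha subunits, beta subunits and kindlins, stacked by gene. The sums are lower in all 3 resistant libraries (kindlins 51.3 ± 0.743 against 19.2 ± 0.624 CPM per kb), ITGAV keeps its height, and FERMT2 almost disappears.

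Integrins work as pairs, so both subunits were read together for the 24 known alpha and beta combinations. At a level of at least 1 CPM per kb for both subunits, a cut-off chosen after the values were seen, 4 combinations were present in sensitive and 4 in resistant cells. These were ITGA4, ITGA5 and ITGAV with ITGB1, and ITGAV with ITGB5, in both groups. ITGA5 with ITGB1 was the only one of the 4 with both subunits called lower. For ITGAV the partner fell and ITGAV was not called. Each of the other combinations had at least 1 subunit with a group mean under that level in both groups. ITGA9 and ITGB7 lay just under it in sensitive cells, at 0.82 ± 0.575 and 0.784 ± 0.142 CPM per kb (SD, n = 3). In resistant cells they were at 0.37 ± 0.0129 and 0.122 ± 0.0241 CPM per kb. A slightly lower cut-off would thus add ITGA9 with ITGB1, and ITGB7 with ITGA4 or ITGAE, in sensitive cells only. Both subunits were low for ITGA6 with ITGB4, at 0.0938 and 0.11 CPM per kb in sensitive cells. In some combinations the levels of the partners were far apart. ITGA2B at 12.7 CPM per kb stood against ITGB3 at 0.214 ± 0.112 in sensitive cells, and ITGAM at 9.05 CPM per kb against ITGB2 at 0.471 ± 0.0238 in resistant cells. The ITGB3 level is uncertain and may be too low, because 2266 of its 4394 exon bases are shared with ENSG00000259753. RNA levels do not show which receptors reach the surface.

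The promoters of 3 genes that differed between the groups are shown because azacitidine acts through the enzymes that methylate CpG dinucleotides, although no methylation was measured here. RefSeq promoters (GRCh38.p14) were found for 27 of the 38 genes, and the window counted is the 250 bases before the RefSeq start. That start can differ from the gene ends of GENCODE 29 given above. For FERMT2, ITGB1, VCL and PARVB the whole window lies inside the GENCODE 29 gene. For ITGA2B the near end of the window (44389650) lies upstream of the GENCODE 29 start (44389505) and does not adjoin it. Which start these cells use was not tested. FERMT2, the gene that fell most, and TLN2, which rose, both had 36 CpGs in that window, a number reached by 4.73% of 27305 promoters. ITGA2B, which fell, had 2, a number reached by 84.6%. The stretches printed leave out bases annotated as exon by GENCODE 29, run 5′ to 3′ on the strand of the gene, and have each CpG in capitals. They are FERMT2 at chr14:52951098-52951300 (minus strand), TLN2 at chr15:62390300-62390525 (plus strand) and ITGA2B at chr17:44389650-44389899 (minus strand).
FERMT2: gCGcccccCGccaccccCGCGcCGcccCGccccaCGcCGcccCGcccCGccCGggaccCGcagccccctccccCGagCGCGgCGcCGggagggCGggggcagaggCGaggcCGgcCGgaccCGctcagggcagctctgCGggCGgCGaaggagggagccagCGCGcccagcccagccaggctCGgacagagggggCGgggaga
TLN2: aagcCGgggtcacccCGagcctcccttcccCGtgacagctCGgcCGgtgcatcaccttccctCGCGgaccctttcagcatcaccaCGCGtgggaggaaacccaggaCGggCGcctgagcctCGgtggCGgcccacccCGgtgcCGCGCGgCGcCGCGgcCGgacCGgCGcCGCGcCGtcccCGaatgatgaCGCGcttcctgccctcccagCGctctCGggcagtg
ITGA2B: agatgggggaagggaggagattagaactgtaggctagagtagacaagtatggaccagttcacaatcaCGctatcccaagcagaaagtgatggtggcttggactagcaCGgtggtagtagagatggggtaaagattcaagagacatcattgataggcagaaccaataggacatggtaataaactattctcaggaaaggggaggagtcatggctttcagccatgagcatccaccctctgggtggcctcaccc
The sequences show CpG-dense stretches in a gene that fell and in a gene that rose, and a CpG-poor stretch in another gene that fell. Over the 8 promoters found for genes called lower the number of CpGs ranged from 2 to 36 with a median of 10.5. It ranged from 16 to 36 over the 3 genes called higher and from 1 to 41 with a median of 25 over 13 genes not called, where the median of all promoters was 11. The ranges overlap.

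Other genes of integrin biology were read in 5 lists. Among 22 tested regulators of integrin activation and trafficking (of 24), 8 were lower and 6 higher (median log2 fold change −0.32). Of all tested genes 13.1% were called lower and 9.83% higher, the shares to read the counts of each list against. RAP1, a small GTPase, recruits talin to integrins. RASGRP2, the exchange factor that activates RAP1 in platelets, fell from 24.6 ± 4.42 to 4.06 ± 0.133 CPM (SD, n = 3; edgeR adjusted p = 1.52e-05). RASSF5 (RAPL), a RAP1 effector, fell from 149 ± 18.6 to 35.2 ± 0.783 CPM (edgeR adjusted p = 1.36e-05). RAP1B fell and RAP1A rose, by log2 −0.69 and 1.12. FYB1, an adaptor that couples to integrin activation in T cells and platelets, fell from 175 ± 13 to 0.432 ± 0.203 CPM (edgeR adjusted p = 3.92e-07). DAB2, an adaptor of integrin endocytosis, measured 22.3 ± 1.5 CPM in sensitive cells and had 0 counts in every resistant library. That is a level at least 846-fold lower (bound from 3 counts over the group; edgeR adjusted p = 1.77e-06). DAB2 passed the filter on low counts only through the sensitive libraries, where it is high.

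Of 25 tested adhesion kinases, adaptors and signalling genes (of 29), 6 were lower and 2 higher (median log2 fold change −0.13), where 13.1% of all tested genes were lower and 9.83% higher. The share higher is thus near that of all genes. With library totals in place of TMM scaling 5 were lower and 8 higher, and without both libraries numbered 3 the numbers were 8 and 8. Leaving out those libraries also raised the calls over all genes, from 2054 to 4645 higher and from 2741 to 5021 lower. The count lower was 3 without resistant replicate 2, and leaving out resistant replicate 2, or either of sensitive replicates 1 and 2, left 1 higher. SYK, a kinase that signals downstream of integrins in blood cells, fell from 70.3 ± 11.3 to 11.5 ± 1.13 CPM (edgeR adjusted p = 8.29e-06). ARHGEF6 (alpha-PIX), an exchange factor that binds parvin, fell from 81.8 ± 18.8 to 9.73 ± 1.16 CPM (7.85e-06). The GTPase gene RAC2 fell from 56.1 ± 4.48 to 25.1 ± 7.71 CPM (0.00496). SRC, the focal adhesion kinase partner, rose from 1.00, 1.26 and 0.777 to 10.2, 7.62 and 4.80 CPM (edgeR adjusted p = 3.45e-04).

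Of 24 tested actin-linking genes (of 26), 6 were lower and 5 higher (median −0.09), against 13.1% and 9.83% of all tested genes. Without both libraries numbered 3, 9 were higher, with the same rise in calls over all genes. ENAH, an actin filament elongation factor of adhesions, rose from 0.855, 1.56 and 0.509 to 70.7, 71.3 and 84.1 CPM (log2 6.28 ± 0.34 SE, edgeR adjusted p = 2.52e-06). The tensin gene TNS3, whose product also binds beta tails, rose from 0.192 ± 0.172 to 11.5 ± 1.11 CPM (9.75e-05), and passed the filter on low counts only through the resistant libraries. TES, a LIM protein that binds zyxin, fell from 98.1 ± 7.53 to 26.1 ± 7.63 CPM (1.86e-04), and the LIM protein gene FHL2 from 26.6 ± 2.81 to 1.80 ± 0.365 CPM (3.13e-06).

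Of 23 tested integrin ligands and counter-receptors (of 41), 6 were higher and 6 lower (median 0.23), against 9.83% and 13.1% of all tested genes. FN1, the fibronectin ligand of ITGA5 and ITGA4, rose while ITGA5 fell. It measured 23.6, 49.3 and 27.5 CPM in sensitive and 499, 471 and 179 CPM in resistant libraries, with resistant replicate 3 the lowest of its group (log2 3.52 ± 0.42 SE, edgeR adjusted p = 3.28e-04). CDH1 (E-cadherin), the ligand of ITGAE with ITGB7, rose from 5 counts over the sensitive libraries to 6.88 ± 3.28 CPM (3.53e-05), and it too passed the filter only through the resistant libraries, where it is high. The laminin chain genes LAMB3 and LAMA4 fell from 5.73 ± 0.942 to 0.332 ± 0.0393 CPM (1.78e-05) and from 8.28 ± 2.56 to 1.48 ± 0.338 CPM (4.19e-04). The 9 fibroblast markers, which overlap this list in COL1A1 and COL1A2, summed to between 1.32 and 3.58 CPM in sensitive and between 4.80 and 8.42 CPM in resistant libraries. COL1A2 was called higher, COL3A1 lower, and POSTN had no counts.

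Of 19 tested membrane partners of integrins (of 20), 7 were lower and 2 higher (median −0.16), against 13.1% and 9.83% of all tested genes, so that the share higher is near that of all genes. Without both libraries numbered 3, 5 were higher, again with more calls over all genes. CD44, the hyaluronan receptor, fell from 85.4 ± 4.93 to 2.51 ± 1.12 CPM (edgeR adjusted p = 5.22e-06), and PLAUR, the urokinase receptor, from 20.2 ± 2.68 to 8.67 ± 1.24 CPM (0.00153). The syndecan genes SDC1 and SDC2, matrix co-receptors, rose from 21.9 ± 5.32 to 59.6 ± 5.23 CPM (7.30e-04) and from 88.7 ± 10.9 to 211 ± 37.2 CPM (0.00105).

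**Figure D4:**
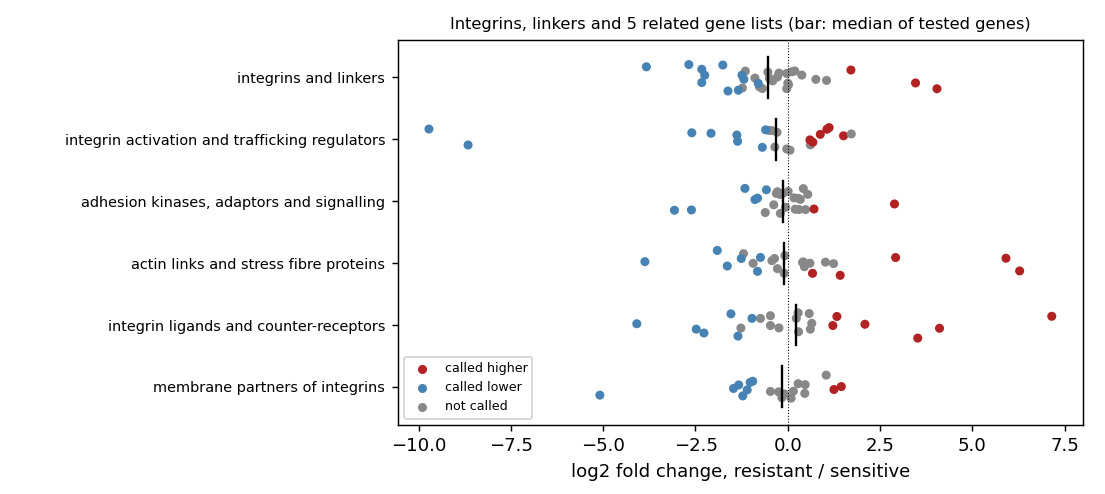
Log2 fold change (resistant over sensitive) of each tested gene in the integrin and linker set and in 5 related lists, with the median of each as a bar. DAB2, without counts in resistant cells, is drawn at its bound of −9.72. The medians lie between −0.54 and 0.23 and each list holds genes called in both directions.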

How the data were processed

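The authors deposited raw counts per Ensembl gene, 1 column per library, from total RNA after ribosomal RNA removal with a stranded kit, per the labels' protocols. The submitters' processing notes list GRCh38, HISAT2 2.2.1, Trimmomatic 0.39, Subread 2.0.3 and featureCounts. Annotation release, strand setting and counting unit are unstated (not given in the sources used here), so overlapping and antisense genes are uncertain. Symbols came from a name table (61369 of 61487 IDs) and positions and exon lengths from GENCODE 29.

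All genes passing filterByExpr (20891) were tested with edgeR 4.0.16 (TMM factors, robust quasi-likelihood test, two-sided, R 4.3.3), called at a Benjamini-Hochberg adjusted p below 0.05 over all of them. The SE is the log2 fold change divided by the square root of F. CPM uses TMM-scaled totals. Libraries were not pooled for the edgeR test. Counts were summed over the libraries of a group for the ITGAD ratio and its interval and for the DAB2 bound.

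Alternatives were DESeq2 1.42.0 and its size factors, limma 3.58.1 (voom), library totals, no filter, at least 50 counts in 3 libraries, a replicate block, length and GC offsets (span 0.3), each library left out, and both libraries numbered 3 left out. The steps were tested on simulated counts.

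The genes and lists were chosen with earlier results of these data known. Every integrin and linker gene may be named, and up to 4 genes with the smallest adjusted p from each of the 5 related lists. RAP1A and RAP1B were named after their values were seen. All 252 symbols listed matched. Marker lists not described with the results were lymphocyte (summed level 28.5 to 122 CPM in sensitive and 10.4 to 12.3 CPM in resistant libraries, 0 of 7 tested higher and 4 lower), endothelial (23.5 to 41.3 and 6.74 to 15.8 CPM, 2 of 4 lower) and epithelial (525 to 660 and 400 to 566 CPM, 1 of 5 higher and 1 lower).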

Additional observations from a re-analysis of the deposited data

How the results depend on the processing

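Under the 15 alternatives the number of integrin and linker genes called lower was between 9 and 14 (11 as reported) and the number called higher was 3, except 4 without both libraries numbered 3 and 1 with at least 50 counts in 3 libraries, where ITGA1 and ITGB8 are not tested. Of the 14 called genes, 12 kept direction and call in every alternative that tested them, and ITGAX and ITGB1 lost the call only in the leave-one-out fits given above. Over all tested genes the median log2 difference was 0.03, and 0.20 when library totals replaced TMM scaling.

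The libraries share replicate numbers, but the labels do not state that they are paired. The correlation of deviations from the group mean was 0.202, 0.0850 and 0.299 for the same-numbered libraries. The libraries numbered 3 correlated best with each other, but not every library correlated best with its own number. With 3 libraries per group these values cannot decide whether the libraries are paired. With the replicate block 13 genes were lower and 3 higher, with ITGA4 (log2 −0.60, edgeR adjusted p = 0.0399) and TLN1 (0.0154) added. With no filter 13 were lower, with ITGA4 (0.00957) and ITGA9 (0.00138) added.

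Signs turned for genes that were not called. The log2 fold change of ITGA2 (0.02) was −0.00 with DESeq2, −0.21 with limma-voom, −0.01 with no filter, −0.14 with the block and from −0.42 to 0.43 with a library left out. That of ITGB4 (0.00) was −0.01 with DESeq2, −0.10 with length and GC offsets, −0.11 with limma-voom, −0.02 with no filter, −0.08 with the block and from −0.25 to 0.35 with a library left out. That of ITGB2 (−0.03) was 0.01 with at least 50 counts, 0.15 with library totals, 0.07 without both libraries numbered 3 and from −0.20 to 0.04 with a library left out. That of PXN (0.11) was −0.06 with offsets, −0.00 with limma-voom and from −0.35 to 0.32 with a library left out. That of PARVB (−0.03) was 0.01 with at least 50 counts, 0.14 with library totals and from −0.13 to 0.06 with a library left out. That of ITGAE (−0.28) was from −0.51 to 0.06 with a library left out. The cause of these changes was not tested.

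Among adhesion kinases, adaptors and signalling genes 2 were higher as reported, 4 with at least 50 counts or with offsets and 5 with the replicate block. Counts of all genes called were from 1051 to 3327 higher and from 1677 to 3718 lower with a library left out, and 4645 and 5021 without both libraries numbered 3. At these depths a count of 0 in a library allows from 0.0733 to 0.0902 CPM, so genes such as PARVA, PARVG and ITGB6 cannot be compared.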
